A study of Mus musculus with 8 samples.

Results

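Cells with transcripts of the perineurial genes *Cldn1*, *Wnt6* and *Itgb4* were taken from single-cell RNA sequencing of the embryonic mouse forelimb and described against all other cells of their own library. A cell was a member when it had at least 1 unique molecular identifier (UMI, the tag that marks a captured transcript) of at least 2 of the 3 genes, at most 2 UMIs summed over the keratins *Krt5*, *Krt14*, *Krt15* and *Krt1*, and 0 UMIs of the epithelial adhesion gene *Epcam*. Among 27937 cells with at least 3000 UMIs and at most 10% mitochondrial UMIs, 185 were members, of 53085 filtered cells in all 8 libraries. The members were thus chosen by their measured UMIs of these 8 genes, whose levels are given only as a description.

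The 3 libraries held cells sorted for tdTomato from forelimbs at E14.5, from the proximal segment at E16.5 (the lower upper arm, the elbow and the upper forearm) and from the distal segment at E16.5 (the lower forearm and the paw). The mice were homozygous for a CreERT2 knocked into *Hic1* and for a Rosa26 tdTomato reporter behind a stop cassette that Cre removes, on a C57BL/6J background, and the dams had received 7.5 mg of tamoxifen by gavage at embryonic day 10. tdTomato thus marks cells that expressed *Hic1*, which encodes a transcriptional repressor, around that time, and their descendants. Forelimbs of several embryos were pooled, cells with surface markers of blood or endothelium were excluded in the sort, and each stage and segment is 1 library. The E16.5 forelimb pairs were cut into both segments, so the proximal and distal libraries may share embryos and limbs. Filtered cells had a median of 14333 UMIs at E14.5, 18473 in the E16.5 proximal and 17275 in the E16.5 distal library, and between 21 and 32 cell barcodes were shared by any pair of these libraries, among them the barcode of 1 proximal member, which was no member in the distal library.

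The perineurium is the sheath of flattened cells that wraps each bundle of axons in a peripheral nerve. Its cells are sealed to each other by tight junctions, carry a basement membrane on their faces and, with the vessels inside the nerve, form the barrier between nerve and blood. Schwann cells signal to the cells that build it through Desert hedgehog, whose receptor *Ptch1* is also a target gene of the pathway. *Cldn1* encodes a tight junction claudin, *Wnt6* a secreted Wnt ligand and *Itgb4* the integrin beta chain that pairs with the alpha 6 chain to bind laminin. All 3 are also expressed in epidermis, which is what the keratin and *Epcam* limits of the rule act on. The study named *Ptch1*, *Wnt6* and *Cldn1* from these libraries as genes of its perineurial cells, so their levels are no independent evidence here.

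Members made up 22 of 8381 cells at E14.5 (0.262%, exact binomial 95% interval 0.165 to 0.397%). They were 87 of 11109 cells in the E16.5 proximal library (0.783%, 0.628 to 0.965%) and 76 of 8447 cells in the E16.5 distal library (0.900%, 0.710 to 1.12%). The intervals of both E16.5 libraries lay above that of E14.5 and overlapped each other. Intervals cover counting error only, and since each stage and segment is 1 library the shares were not tested against each other. With the same rule, 3 of 6123 cells were found at E13.5 (0.0490%), and 0 cells at E11.5, at E12.5 and in both libraries of whole E11.5 limbs. All of these libraries had fewer UMIs per cell, with medians from 6788 (E13.5) to 8992 (E11.5 sorted). Per the methods, samples of E11.5 to E13.5 were made with an earlier version of the kit. The 0 counts thus do not show that such cells were absent.

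The number of members depended on depth, since most of them carried 1 or a few UMIs of each gene. With every cell thinned to 3000 UMIs the rule found 1, 6 and 3 cells at E14.5, proximal and distal, or 0.0119%, 0.0540% and 0.0355%, and their intervals overlapped. Members were deeper than the other cells. Their median was 15844 UMIs at E14.5 against 14330, 26961 in the proximal library against 18439.5, and 23085 in the distal library against 17229. The part of depth in each result was not tested as a cause, but values from thinned cells stand beside the main ones.

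**Figure D1:**
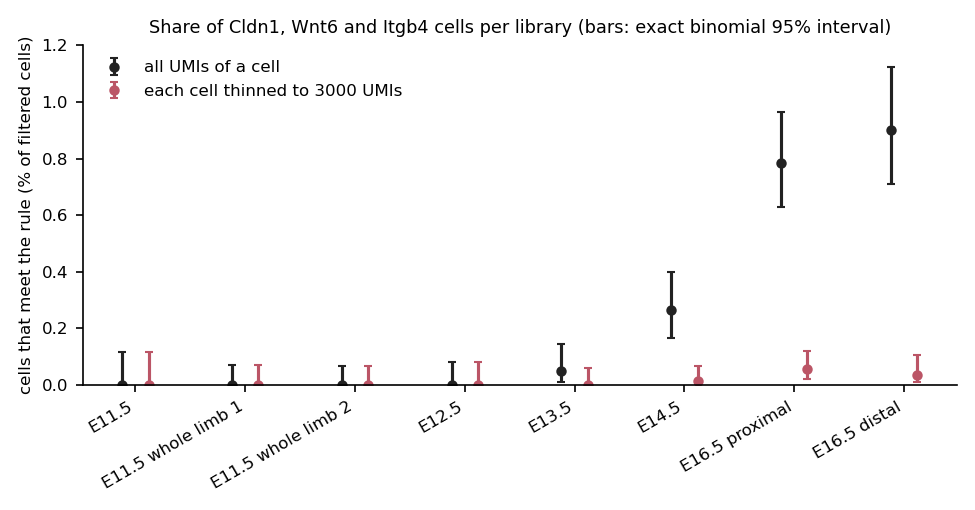
Share of cells that met the rule in each library, in percent of filtered cells, with all UMIs of a cell (black) and with each cell thinned to 3000 UMIs (red); bars are exact binomial 95% intervals. The shares with all UMIs were 0.262% at E14.5, 0.783% for the proximal and 0.900% for the distal segment at E16.5, and none of the thinned shares exceeded 0.0540%.

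The keratin and *Epcam* clauses removed most of the cells with at least 2 of the 3 genes, 350 of 535, of which 333 broke both clauses, 10 only the keratin limit and 7 only the *Epcam* limit. There were 133 members with 0 keratin UMIs, 44 with 1 and 8 at the limit of 2 (53, 28 and 6 in the proximal library), and 1 cell fell just outside with 3 keratin UMIs and no *Epcam*. On the other side of the rule, 2948 cells within the limits had a UMI of only 1 of the 3 genes. Summed over the cells of a library and given in CPM (the UMIs of a gene scaled to a common total of all UMIs), *Cldn1* stood at 72.7, 76.0 and 83.5 CPM in the members of E14.5, proximal and distal, against 3.37, 5.77 and 3.68 CPM in the other cells within the limits. *Wnt6* stood at 53.3, 52.9 and 60.3 CPM against 1.87, 4.17 and 6.07 CPM, and *Itgb4* at 19.4, 7.27 and 11.1 CPM against 0.942, 0.672 and 0.891 CPM. The rule set these differences.

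*Cldn1* with *Wnt6* was the main combination, in 141 members, and 44 members owed their place to *Itgb4* with 1 of the other genes. Only 3 cells had all 3 genes, 2 of them proximal and 1 distal. Cells with both *Cldn1* and *Wnt6* numbered 14, 72 and 55 at E14.5, proximal and distal, where the product of the separate shares of both genes, taken within 10 groups of cells of like depth, gives 8.64, 57.2 and 38.5 cells. For *Cldn1* with *Itgb4* the numbers were 5, 12 and 8 against 5.28, 14.04 and 8.24, and for *Wnt6* with *Itgb4* 3, 7 and 15 against 3.21, 9.49 and 13.5. Cells with both *Cldn1* and *Wnt6* thus outnumbered that product in all 3 libraries, though the product came to most of each number. The *Itgb4* pairs were near it. This is a description of the rule's genes, with no interval and no test.

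The label was checked with 13 other genes of the perineurium that the rule did not use, chosen with earlier results of these data known. Counts were summed per library over the members and over all other cells. They were compared with the quasi-likelihood test of edgeR with the library as a block. The comparison thus rests on 3 libraries that differ in stage or segment, 2 of which may share embryos. With 2 residual degrees of freedom, edgeR draws the spread of each gene towards a trend over all genes. Small p-values thus rest mostly on that trend and not on the gene's own spread between libraries. Of 15879 genes tested, 1122 (7.07%) passed an adjusted p of 0.05, 394 higher in members (2.48%) and 728 lower (4.58%), and the median log2 fold change was −0.07. Of the 12 perineurium genes tested, 7 rose, 3 fell and 2 did not pass, with a median log2 fold change of 1.16. *Itga6*, *Lypd2*, *Tenm2*, *Ptch1*, *Gli1* and *Hhip* were among those that rose, *Slc2a1*, *Ocln* and *Perp* fell, *Tjp1* and *Ntn4* did not pass, and *Msln*, at 0 UMIs in all members, was not tested. The 7 that rose became 5 in thinned cells, 4 in limma-voom, 3 with members found after thinning and 0 with all 3 rule genes required. Rises over all genes went from 394 to 85, 66, 23 and 3 in the same order.

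*Itga6*, the integrin alpha chain that joins *Itgb4*, was among the highest of these genes at E16.5. Its level in members was 7.27, 92.1 and 126 CPM at E14.5, proximal and distal, against 4.92, 17.4 and 26.6 CPM in the other cells. Members exceeded the other cells in all 3 libraries, narrowly at E14.5, where 3 UMIs were counted. The fold was 4.40 (log2 2.14, SE 0.16, adjusted p = 3.20e-18, edgeR). In thinned cells 0%, 20.7% and 22.4% of the members had an *Itga6* UMI, against 1.30%, 3.605% and 6.04% of the other cells within the keratin and *Epcam* limits (9.09%, 51.7% and 57.9% against 5.35%, 13.6% and 20.8% with all UMIs). *Itga6* was not particular to members: the other cells of the proximal cluster that held most members, which is led by pericyte genes, had 112 CPM, and E14.5 cells with pericyte markers 18.2 CPM.

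The other surface genes of the list lay lower. *Lypd2*, a member of the Ly6 family, had 0 UMIs in the E14.5 members and 25.5 and 29.0 CPM in the proximal and distal members, against 0.240, 1.82 and 1.37 CPM in the other cells (log2 3.92, SE 0.38, adjusted p = 2.15e-13, edgeR). *Tenm2*, a teneurin adhesion receptor, stood at 19.4, 17.4 and 20.3 CPM against 9.53, 3.05 and 5.60 CPM (log2 1.86, SE 0.26, adjusted p = 4.34e-08, edgeR). Both were higher in the members of both E16.5 libraries, and *Tenm2* also at E14.5.

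The barrier genes of the list did not rise. *Slc2a1*, the glucose transporter Glut1 of mature perineurium, was at 53.3, 26.7 and 18.3 CPM in the members against 48.0, 59.8 and 30.003 CPM in the other cells, so that members were lower at E16.5 only (log2 −0.84, SE 0.18, adjusted p = 3.75e-04, edgeR). *Ocln*, encoding the tight junction protein occludin, had 0 UMIs in all 185 members. *Tjp1*, encoding the junction scaffold ZO-1, was at 38.8, 38.8 and 81.1 CPM against 29.0, 34.0 and 59.1 CPM (log2 0.26, SE 0.15, adjusted p = 0.408, edgeR). Against only the other cells within the keratin and *Epcam* limits, 7 genes of the list rose and 0 of 11 tested fell. *Slc2a1* was at 47.0, 33.05 and 27.9 CPM in those cells, still above the members at E16.5, without passing.

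Per cell, members were above the average of the other cells within the limits. The members had a UMI of 2.18, 4.11 and 4.12 of the 13 genes on average at E14.5, proximal and distal, against 1.55, 1.66 and 1.97 in the other cells within the limits. Thinned to 3000 UMIs, the averages were 0.818, 0.874 and 1.13 against 0.425, 0.378 and 0.518. Members were higher in each library at both depths. Other classes of cells came near the members or above them: thinned distal cells with chondrocyte markers averaged 1.02 genes, and thinned proximal cells outside the keratin and *Epcam* limits 1.14. The genes were chosen with results of these data known, so the label has no independent check here, and the cells are called members and not perineurial cells.

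**Figure D2:**
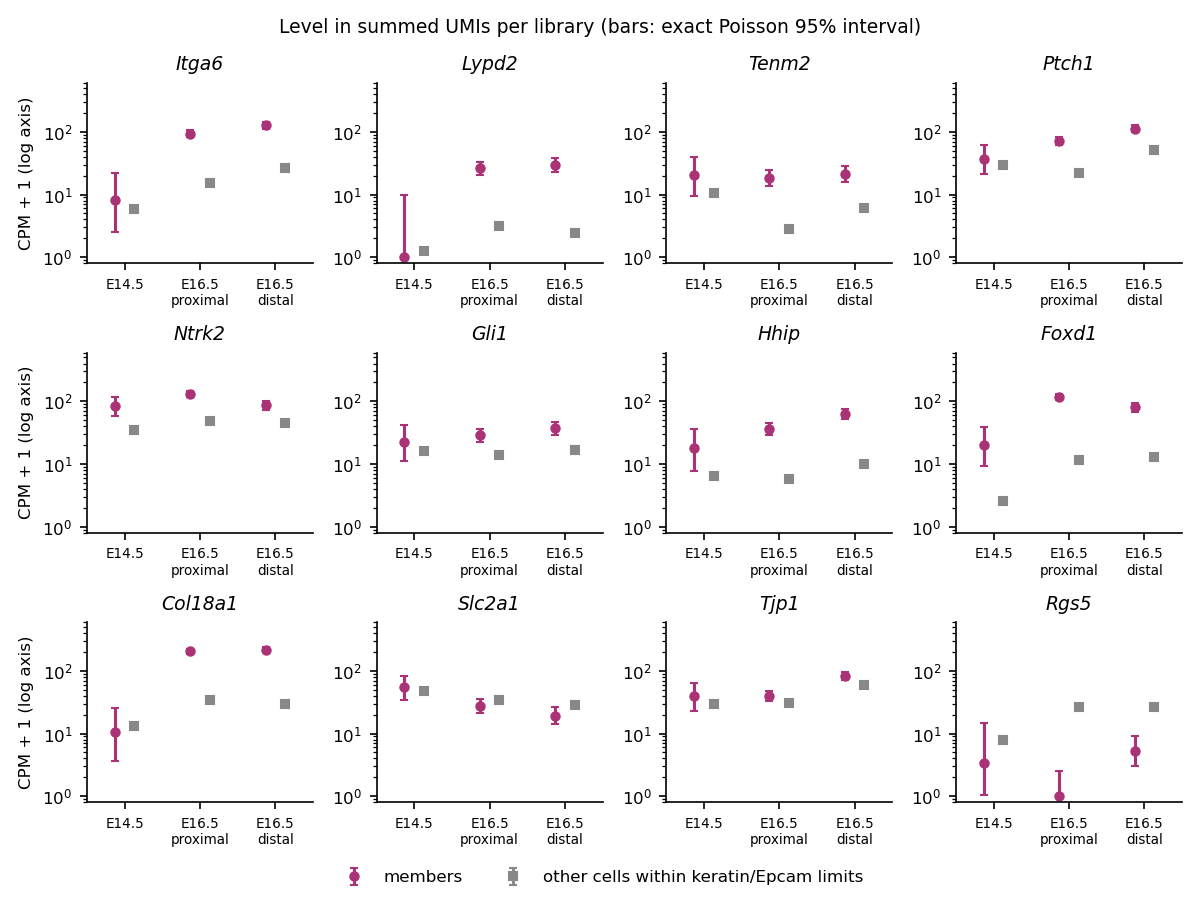
Level of 12 genes that the rule did not use, as CPM + 1 of summed UMIs on a log axis, in the members (circles) and the other cells within the keratin and *Epcam* limits (squares) of each library; bars are exact Poisson 95% intervals. *Foxd1*, *Ntrk2* and *Hhip* lay higher in members in all 3 libraries, *Col18a1* and *Lypd2* in both E16.5 libraries, *Slc2a1* lay lower at E16.5, and *Rgs5* lay lower in all 3.

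Hedgehog pathway genes were tested as a list of 14, of which 13 were tested, 5 rose and 2 fell (all genes: 2.48% and 4.58%). The median log2 fold change was −0.04. Among those that rose are the receptor *Ptch1*, the ligand-binding inhibitor *Hhip* and the transcription factors *Gli1* and *Gli2*. *Ptch1*, *Hhip* and *Gli1* are induced by Hedgehog signalling, and the co-receptors and the signal transducer *Smo* did not rise with them. *Ptch1* stood at 36.4, 71.5 and 111 CPM in the members of E14.5, proximal and distal against 28.1, 19.4 and 49.7 CPM in the other cells (log2 1.24, SE 0.15, adjusted p = 1.51e-09, edgeR), higher in each library.

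*Hhip* was at 17.0, 35.6 and 62.3 CPM in members against 5.05, 4.10 and 8.74 CPM (log2 2.71, SE 0.21, adjusted p = 3.30e-17, edgeR). *Gli1* was at 21.8, 27.9 and 36.2 CPM against 14.8, 11.2 and 15.4 CPM (log2 1.07, SE 0.20, adjusted p = 3.13e-05, edgeR). Both were higher in members in every library. *Gli2* had 0 UMIs in the E14.5 members, where the other cells had 11.3 CPM, and 22.6 and 29.9 CPM in the proximal and distal members against 9.01 and 15.9 CPM (log2 0.78, SE 0.24, adjusted p = 0.0283, edgeR). In DESeq2 its difference was −0.078, so its direction is not settled.

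The co-receptors *Gas1* and *Cdon* fell in the same fit. *Gas1* was at 907, 360 and 530 CPM in members against 1077, 501 and 768 CPM (log2 −0.53, SE 0.09, adjusted p = 1.00e-05, edgeR), and *Cdon* at 48.5, 23.8 and 56.5 CPM against 45.7, 33.3 and 80.6 CPM (log2 −0.49, adjusted p = 0.0322, edgeR). *Gas1* was lower in members in every library and *Cdon* at E16.5. The call of *Cdon* was lost without the proximal or the distal library, in thinned cells, in DESeq2 and in limma-voom. *Smo* stood at 104, 83.2 and 88.8 CPM against 112, 73.3 and 99.3 CPM and did not pass. The ligands were hardly seen: *Shh* had 0 UMIs in members, and *Dhh* and *Ihh* were at or below 0.483 CPM in each library's members.

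**Figure D3:**
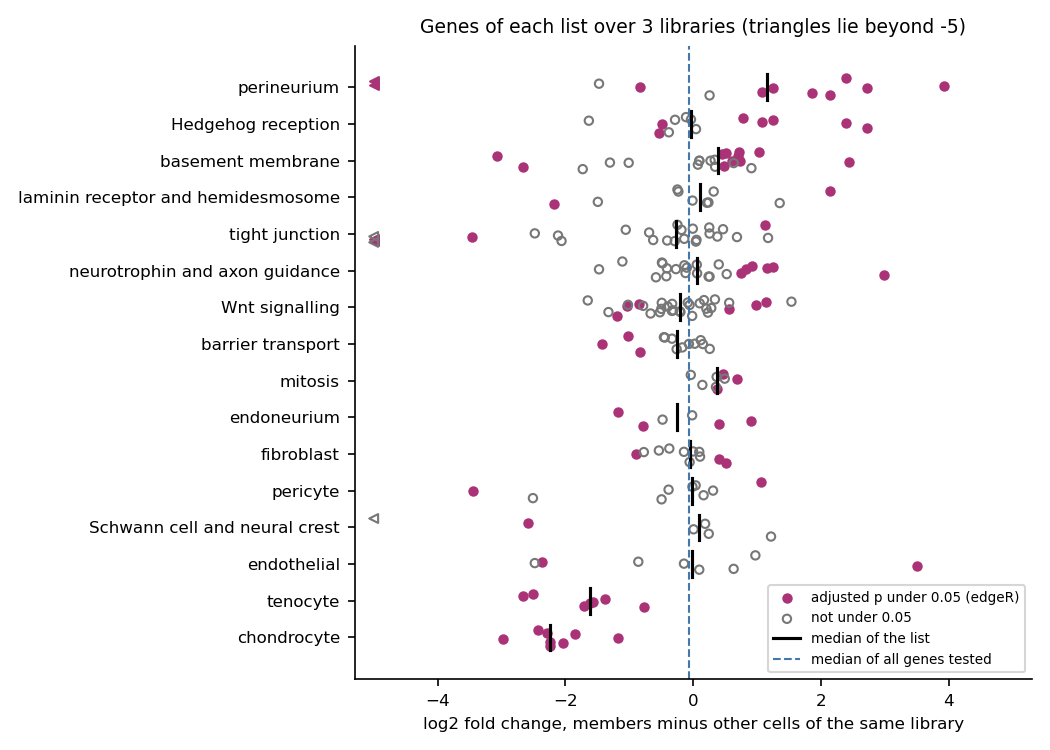
Log2 fold change of members minus other cells for each tested gene of 16 lists (points; filled for an adjusted p under 0.05 in edgeR, open otherwise), with the median of each list (black) and of all 15879 genes (dashed, −0.07). The perineurium list had the highest median of those drawn, 1.16, and the tenocyte and chondrocyte lists the lowest, −1.62 and −2.24; keratinocyte, erythroid and myogenic genes, which lay lower than the tenocyte list, are not drawn.

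Of 22 basement membrane genes tested, 9 rose and 2 fell (all genes: 2.48% and 4.58%), with a median log2 fold change of 0.39. The 9 became 5 without the proximal and 4 without the distal library, 4 in thinned cells, 5 in DESeq2 and 4 in limma-voom. Rises over all genes went from 394 to 147, 183, 85, 194 and 66 in the same order. Both chains of the common type IV collagen (*Col4a1*, *Col4a2*), the chain *Col4a5*, nidogen 1 (*Nid1*), the laminin chains *Lama2*, *Lama4*, *Lamb2* and *Lamc1* and the type XVIII collagen *Col18a1* rose. *Col15a1*, the closest relative of *Col18a1*, and *Lama3*, a laminin chain of epidermis, fell. *Col18a1* was at 9.70, 202 and 217 CPM in members of E14.5, proximal and distal against 13.998, 31.2 and 28.5 CPM in the other cells (log2 2.43, SE 0.17, adjusted p = 1.39e-19, edgeR). It was thus higher in members at E16.5 only, and it did not pass in DESeq2. *Col15a1* was at 0, 3.23 and 1.45 CPM against 7.22, 9.54 and 19.4 CPM (log2 −2.66, SE 0.39, adjusted p = 3.00e-07, edgeR), lower in each library.

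The type IV collagens moved by less. *Col4a1* stood at 92.1, 595 and 703 CPM in members against 83.4, 316 and 356 CPM (log2 0.71, SE 0.11, adjusted p = 1.05e-06, edgeR), and *Nid1* at 82.4, 321 and 416 CPM against 55.0, 196 and 215 CPM (log2 0.70, SE 0.11, adjusted p = 1.62e-06, edgeR). Both were higher in members in every library. Of the 10 genes of laminin receptors and hemidesmosomes, *Itga6* rose and *Col17a1* fell (all genes: 2.48% and 4.58%). Against other cells within the limits 3 rose and 0 fell. *Itgb1*, the chain that *Itga6* joins in the absence of *Itgb4*, was at 247, 487 and 552 CPM in members against 240, 425 and 547 CPM.

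Tight junction genes other than *Cldn1* did not rise as a group. Of 26 tested, *Cgnl1* rose and *Cldn4*, *Ocln* and *Lsr* fell, with a median log2 fold change of −0.27, or −0.16 with the 3 genes at 0 in all members set to a floor of 3 UMIs over all members. Against only the other cells within the keratin and *Epcam* limits, 3 of 24 rose, *Cgnl1*, *F11r* and *Cldn11*, and 0 fell, with a median of −0.04. *Cgnl1*, encoding the junction protein paracingulin, was at 26.7, 60.2 and 103 CPM in members against 16.1, 18.3 and 56.1 CPM (log2 1.13, SE 0.16, adjusted p = 4.21e-08, edgeR), higher in each library. *Cldn11*, another claudin, was at 4.85, 4.45 and 9.66 CPM against 8.82, 0.770 and 4.07 CPM and did not pass against all other cells. Of 13 genes of barrier transport, 0 rose (2.48% of all genes did) and 3 fell, *Slc2a1*, the lactate transporter *Slc16a3* (log2 −1.02, adjusted p = 6.13e-04, edgeR) and the water channel *Aqp1* (log2 −1.43, adjusted p = 8.03e-07, edgeR).

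Receptors and guidance factors of axons contributed 6 genes that rose and 0 that fell of 23 tested (all genes: 2.48% and 4.58%). Their median log2 fold change was 0.06. Against other cells within the limits 6 rose and 2 fell, and with only *Cldn1* and *Wnt6* cells as members 7 rose and 4 fell. The rises numbered 4 without the proximal or the distal library, 3 in limma-voom and 2 in thinned cells. Over all genes they went from 394 to 147, 183, 66 and 85 in the same order. *Ntrk2*, the receptor of BDNF, was at 82.4, 128 and 85.0 CPM in members against 32.1, 41.1 and 42.4 CPM (log2 1.24, SE 0.13, adjusted p = 1.89e-11, edgeR). *Sema5b*, a semaphorin, was at 2.42, 12.1 and 27.5 CPM against 1.45, 1.51 and 2.39 CPM (log2 2.98, SE 0.36, adjusted p = 8.58e-10, edgeR). *Nrp1*, the semaphorin and VEGF co-receptor, was at 192, 326 and 440 CPM against 99.7, 165 and 201 CPM (log2 0.93, SE 0.10, adjusted p = 8.48e-11, edgeR). These 3 were higher in members in every library, *Sema5b* at E14.5 from only 1 UMI. *Ntrk2* was not particular to members: at a clustering resolution of 2, the E14.5 cluster with most members had 138 CPM (214 cells, 5 of them members). *Ngfr*, the p75 neurotrophin receptor, *Slit3* and *Gfra2* also rose, by log2 1.16, 0.75 and 0.83.

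Wnt pathway genes, tested because *Wnt6* is a ligand, were mixed: 3 of 31 rose and 3 fell (all genes: 2.48% and 4.58%). Their median log2 fold change was −0.21. Only 1 rose without the distal library and 0 in limma-voom, 2 rose and 5 fell without E14.5, and 8 fell with only *Cldn1* and *Wnt6* cells as members. The secreted inhibitor *Sfrp1* stood at 46.1, 117 and 126 CPM in members against 44.5, 59.2 and 42.2 CPM (log2 0.98, SE 0.14, adjusted p = 2.75e-07, edgeR). Its paralog *Sfrp2* went the other way, at 133, 71.5 and 52.6 CPM against 260, 120 and 115 CPM (log2 −1.04, SE 0.12, adjusted p = 2.17e-10, edgeR). *Sfrp1* was higher in members at E16.5 and *Sfrp2* lower in each library. The inhibitor *Dkk1* and the enhancer *Rspo3* rose, and the ligand *Wnt4* (log2 −1.19) and the inhibitor *Wif1* fell. *Axin2*, a general target of Wnt signalling through beta-catenin, was at 19.4, 16.2 and 29.4 CPM against 29.97, 11.7 and 31.4 CPM and did not pass.

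Across all genes, the 12 with the largest rise at 20 CPM or more included *Foxd1*, *Wfdc1*, *Fam65b*, *Hhip*, *Angpt2*, *Itga6*, *Lepr*, *Bace2*, *Fxyd7* and *Bnc2*, whose log2 fold changes ran from 3.14 (*Foxd1*) down to 1.75 (*Bnc2*). *Foxd1* is a forkhead transcription factor on chromosome 13 (GRCm38, chr13:98354242-98359305, plus strand, a protein-coding gene). It was at 19.4, 116 and 78.7 CPM in the members of E14.5, proximal and distal against 1.497, 9.25 and 12.1 CPM in the other cells, from 8, 286 and 163 UMIs. The fold was 8.84 (log2 3.14, SE 0.18, adjusted p = 4.15e-24, edgeR), and members were higher in every library, with no overlap of the Poisson intervals. At E14.5 the 8 UMIs lay in 2 of 22 members, 7 of them in 1 cell, while the interval takes UMIs as independent. In thinned cells 4.55%, 20.7% and 13.2% of members had a *Foxd1* UMI against 0.466%, 2.33% and 2.38% of the other cells within the limits.

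*Angpt2*, a ligand of the endothelial receptor Tie2, was at 33.9, 23.0 and 42.5 CPM in members of E14.5, proximal and distal against 5.22, 4.53 and 6.68 CPM (log2 2.46, SE 0.22). *Lepr*, the leptin receptor, was at 33.9, 27.9 and 114 CPM against 11.7, 7.70 and 16.9 CPM (log2 2.14, SE 0.19). Both were higher in members in every library, and *Lepr* was highest in the distal members. Neither was particular to members. At a clustering resolution of 2, the E14.5 cluster with most members had *Lepr* at 51.6 CPM (214 cells, 5 of them members). The proximal cluster with most members had *Angpt2* at 51.2 CPM (340 cells, 38 of them members). *Fxyd7*, a regulator of the sodium pump, was at 55.8, 61.8 and 44.9 CPM against 24.2, 12.6 and 12.5 CPM (log2 1.80, SE 0.17). *Bnc2*, a zinc finger protein, was at 38.8, 54.6 and 108 CPM against 22.2, 10.9 and 30.9 CPM (log2 1.75, SE 0.16). The gene *Itga6* lies at chr2:71745616-71858416 on the plus strand and *Hhip* at chr8:79965851-80058006 on the minus strand, both protein-coding.

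The 12 genes that fell the most included *Fam25c*, *Them5*, *Lypd3*, *Cnfn*, *Cldn4*, *Calm4*, *Sprr1a*, *Orm1*, *Hrnr*, *Ly6d* and *Asprv1*, mostly genes of the epidermis and its cornified layers. The rule removed keratinocytes from the members and left them among the other cells, so this is no finding. *Calm4* was at 9.29 CPM in the proximal members, 1115 CPM in all other proximal cells and 10.5 CPM in the other proximal cells within the limits. All 17 tested keratinocyte genes fell, and against other cells within the limits 1 of 14 fell. Both groups of that comparison met the same keratin and *Epcam* limits, so the nearness of their levels is no finding either.

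Of the genes that mark other cell types, those of tendon and cartilage were lower in members. All 7 tested tenocyte genes and all 8 tested chondrocyte genes fell, with medians of −1.62 and −2.24. Only 3 and 4 fell in DESeq2 and 2 and 1 in limma-voom. Falls over all genes went from 728 to 182 and 38 in the same order. *Scx*, the tendon transcription factor, was at 29.1, 3.64 and 14.5 CPM in members against 115, 50.04 and 64.6 CPM (log2 −2.67, SE 0.20, adjusted p = 4.98e-18, edgeR). *Col2a1*, the main cartilage collagen, was at 33.9, 531 and 15.0 CPM against 374, 1778 and 483 CPM (log2 −2.97, SE 0.20, adjusted p = 6.09e-21, edgeR). Both were lower in every library, and the proximal members still held 531 CPM of *Col2a1*. Of 11 fibroblast genes 2 rose and 1 fell (all genes: 2.48% and 4.58%). Without the proximal library and in DESeq2 0 of them rose, and without E14.5 3 rose and 3 fell. Of 6 endoneurium genes 2 rose (0 without the proximal library, in DESeq2 and in limma-voom) and 2 fell. Of 8 dermal fibroblast genes 0 rose and 0 fell, where 7.07% of all genes passed. Against other cells within the limits the fibroblast count turned, with 1 gene that rose and 4 that fell.

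The gate could also hold cells of vessels and nerves. Genes of vessels passed in both directions, and those of nerves only as lower in members. The share that passed was 22.2% of pericyte, 25% of endothelial, 16.7% of Schwann cell and 14.3% of neuronal genes, in lists of 6 to 9 tested genes, against 7.07% of all genes. Of the pericyte list, *Kcnj8* rose and *Rgs5* fell, of 9 tested. *Rgs5*, a defining gene of pericytes, was at 2.42, 0 and 4.35 CPM in members against 6.34, 20.4 and 24.6 CPM (log2 −3.45, SE 0.39, adjusted p = 9.95e-11, edgeR). It was lower in each library, at E14.5 with 1 UMI in members, and its call was lost in thinned cells, in DESeq2 and in limma-voom. *Kcnj8*, a potassium channel of pericytes, was at 50.9, 17.8 and 11.6 CPM against 4.96, 16.8 and 5.10 CPM, and its call (log2 1.06, adjusted p = 0.0117, edgeR) was lost without the E14.5 library. The summed level of the list was 184 to 273 CPM in members and 161 to 275 CPM in the other cells.

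Schwann cells have *Sox10* as their defining gene, and it had 0 UMIs in all members. Of 6 tested Schwann cell and neural crest genes 0 rose and 1 fell, and their summed level was 17.0 to 41.6 CPM in members and 18.4 to 55.6 CPM in the other cells. Of 7 neuronal genes 0 rose and *Nefl* fell. *Nefl* was lower in members in both E16.5 libraries but higher at E14.5, at 31.5 CPM against 11.8 CPM. The call of *Nefl* was lost without the proximal or the distal library, in thinned cells and without cycling cells. It was also lost with DESeq2's size factors in edgeR, in DESeq2 and in limma-voom. In the endothelial list *Cdh5*, encoding VE-cadherin, rose and *Kdr* fell, of 8 tested. The call of *Kdr* was lost without the proximal or the distal library, in thinned cells and in DESeq2. *Cdh5* was at 0, 16.2 and 12.6 CPM in members against 1.89, 1.36 and 0.439 CPM (log2 3.50, SE 0.45, adjusted p = 4.15e-09, edgeR), higher at E16.5 only. *Pecam1*, which defines endothelium and encodes CD31, against which the sort selected, was at 17.0, 5.66 and 4.83 CPM against 10.8, 5.23 and 4.85 CPM and did not pass.

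The lineage label tdTomato did not pass as different. tdTomato was at 511, 1434 and 758 CPM in members against 427, 1339.6 and 854 CPM in the other cells (log2 −0.06, SE 0.09, adjusted p = 0.858, edgeR), and 100% of members had a tdTomato UMI against 97.0%, 99.9% and 99.2%. *Hic1* was at 60.6, 33.9 and 32.3 CPM against 27.4, 21.9 and 27.8 CPM, higher in members in each library without passing (log2 0.48, SE 0.17, adjusted p = 0.0755, edgeR), but it passed without cycling cells and with DESeq2's size factors in edgeR.

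Transcripts of dividing cells were more frequent in members than in the average of the other cells. The share with a UMI of at least 3 of 8 mitosis genes was 22.7%, 57.5% and 30.3% in members of E14.5, proximal and distal against 22.02%, 29.5% and 18.2% of the other cells. In thinned cells it was 22.7%, 27.6% and 15.8% against 12.4%, 14.2% and 9.89%. Cells like the members in other ways were near them in the distal library, where the share was 29.3% in cells within the limits with 1 rule gene and 28.5% in cells with pericyte markers, and below them in the proximal library, at 41.02% and 35.5%. At E14.5 the share was 23.1% and 36.8% in these cells, no lower than in the members. Of the 8 genes *Mki67*, *Top2a* and *Birc5* rose, where 2.48% of all genes did. The count of mitosis genes became 1 without the proximal or the distal library, in thinned cells, in DESeq2 and in limma-voom. *Mki67* was at 104, 119 and 183 CPM in members against 51.9, 69.0 and 115 CPM (log2 0.68, SE 0.12, adjusted p = 1.00e-05, edgeR). Without the cycling cells of both groups 716 genes passed instead of 1122, and 7 perineurium genes rose. The part of cell division in the other results was not tested.

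Members with *Cldn1* and *Wnt6* differed from members chosen through *Itgb4*. In the proximal library *Foxd1* was at 136 CPM in the former, 32.9 CPM in the latter and 10.5 CPM in the other cells within the limits. *Itga6* was at 112, 12.3 and 14.3 CPM in the same order, and *Hhip* at 41.7, 10.3 and 4.72 CPM. The distal library had the same order for *Foxd1*, at 91.4, 25.2 and 12.1 CPM, and for *Hhip*, at 73.4, 15.1 and 8.87 CPM, while *Itga6* was at 153, 12.6 and 25.5 CPM.

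The *Itgb4* pairs of both E16.5 libraries thus held no more *Itga6* (in CPM) than other cells. At E14.5 the 14 members with *Cldn1* and *Wnt6* held all *Foxd1*, *Hhip*, *Angpt2* and *Lepr* UMIs, and the 8 *Itgb4* pairs were at 0. With 1 library per stage and segment and the split drawn from genes of the rule, no test was made of this difference. When only cells with *Cldn1* and *Wnt6* were members, 7 perineurium genes rose as well.

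**Figure D4:**
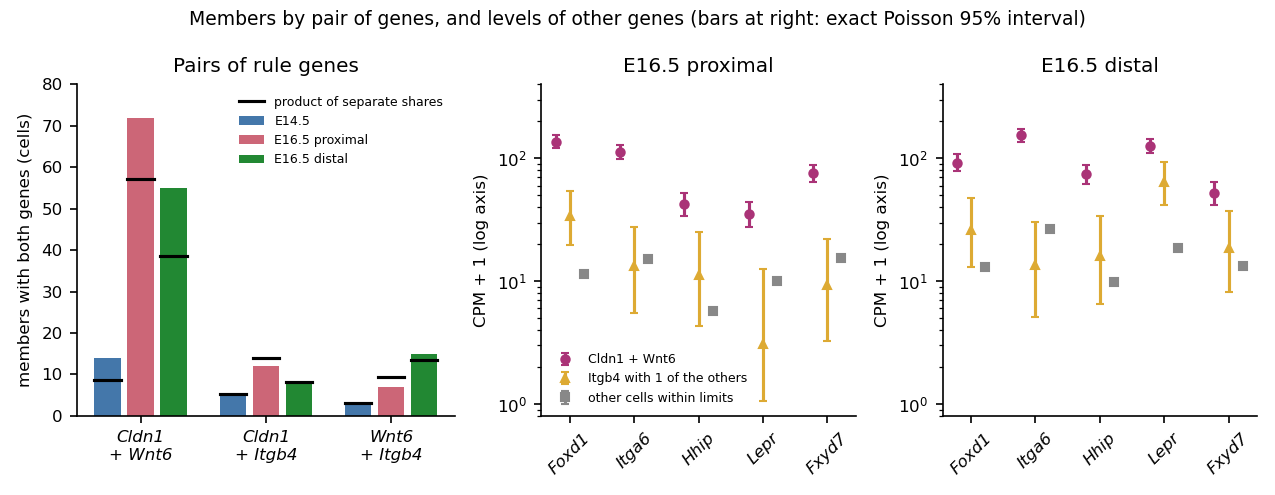
Left, number of members with each pair of rule genes per library (bars), with the product of the separate shares at like depth (black lines); middle and right, levels of 5 genes as CPM + 1 on a log axis in members with *Cldn1* and *Wnt6*, members with *Itgb4* and 1 other gene, and other cells within the limits, with exact Poisson 95% intervals. *Foxd1* was at 136 and 32.9 CPM in the proximal members of both kinds and at 10.5 CPM in other cells.

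The members did not form a cluster of their own. Each library was clustered without the genes of the rule, into 19 to 21 clusters, and members fell into 11 of them at E14.5, 12 in the proximal and 13 in the distal library. The cluster with most members held 7 of 22 (31.8%) at E14.5, 33 of 87 (37.9%) in the proximal and 27 of 76 (35.5%) in the distal library, against 6.98%, 3.79% and 2.68% of all cells. Members were thus over-represented in 1 cluster of each library, and most lay elsewhere. At E14.5 this cluster was led by *Alx1*, *Aldh1a3* and *Ngfr*, in the proximal library by *Rgs5*, *Gm13889* and *Acta2*, and in the distal library by *Acta2*, *Rgs5* and *Myh11*, the last 2 sets being genes of pericytes and smooth muscle. The leading genes depended on the resolution: at 0.5 they were much alike, while at 2 the cluster with most members was led by *Acta2*, *Rgs5* and *Kcnj8* at E14.5, by *D630033O11Rik*, *Ccl11* and *Angpt2* in the proximal and by *Cxcl5*, *Cxcl1* and *Ccl11* in the distal library. All 33 proximal and all 27 distal members in these clusters carried *Cldn1* with *Wnt6*, and 0 of 15 and 0 of 21 *Itgb4* pairs lay there.

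Part of the members in the E16.5 clusters fell together when these clusters were split further. When the cells of each cluster were clustered again, 17 of the 33 proximal members fell into 1 sub-cluster of 52 cells, and 15 of the 27 distal members into 1 of 37 cells. The members of these clusters were spread over 5 proximal and 4 distal sub-clusters in all. The proximal sub-cluster was led by *Tgfbi*, *Ntng1*, *F2rl1*, *Sbspon*, *Thbd* and *Foxd1*, and the distal one by *Nppc*, *Tenm2*, *Foxd1*, *Col4a5*, *Tgfbi* and *Bmp3*. *Rgs5* was at 0 CPM in the members of both sub-clusters and at 510 and 706 CPM in the rest of the proximal and the distal cluster. All proximal members had 0 *Rgs5* UMIs, so its absence does not set those of the sub-cluster apart from the other proximal members.

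The sub-clusters also held 35 proximal and 22 distal cells that did not meet the rule. *Foxd1* was at 290 CPM in the proximal members there, 318 CPM in those other cells and 30.2 CPM in the rest of the cluster, and at 158, 163 and 11.8 CPM in the distal library. *Col18a1* was at 396, 413 and 139 CPM in the proximal and 511, 356 and 151 CPM in the distal library. *Cldn1*, a gene of the rule, was at 131, 71.6 and 22.02 CPM and at 164, 52.9 and 17.1 CPM. For *Foxd1* and *Col18a1* the cells that had missed the rule were thus near the members, and for *Cldn1* between the members and the rest of the cluster. These genes took part in the clustering or the rule, so no test was made.

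**Figure D5:**
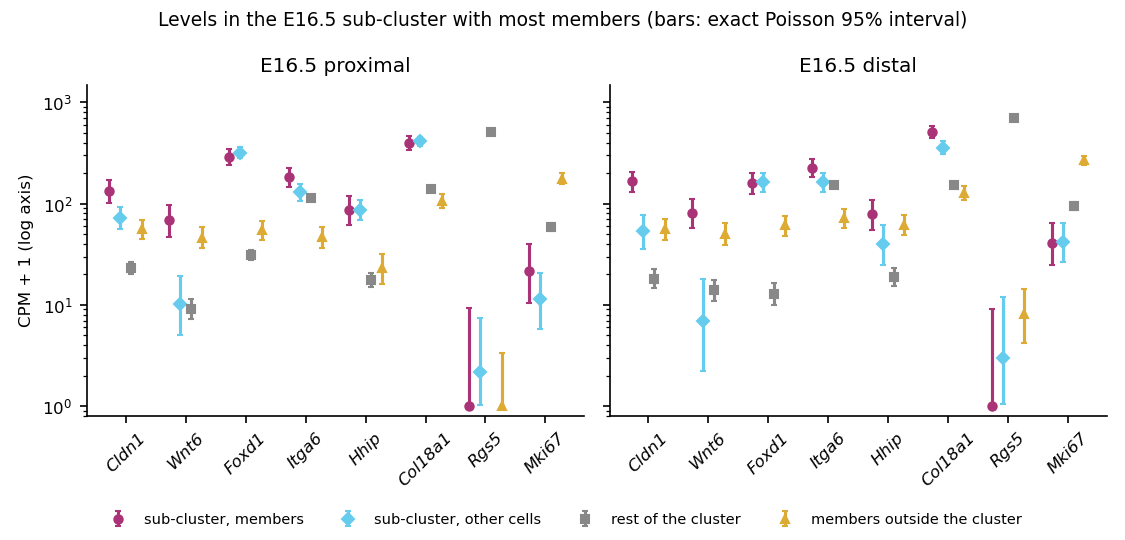
Levels as CPM + 1 on a log axis in the E16.5 sub-cluster with most members, for its members (circles), its other cells (diamonds), the rest of the cluster (squares) and the members outside the cluster (triangles), with exact Poisson 95% intervals. *Foxd1* was at 290 and 318 CPM in the members and other cells of the proximal sub-cluster, and *Rgs5* at 510 CPM in the rest of that cluster.

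At E16.5 members outside these clusters kept part of the pattern. *Foxd1* was at 53.6 and 59.9 CPM in the proximal and distal members outside, against 219 and 108 CPM in the members inside. *Hhip* was at 21.9 and 60.7 CPM outside against 58.3 and 64.8 CPM inside. At E14.5 the 15 members outside had 1 UMI of each, or 3.25 CPM, where the other cells had 1.497 CPM of *Foxd1* and 5.05 CPM of *Hhip*. *Mki67* was at 176 and 267 CPM outside and at 24.8 and 49.9 CPM inside, higher outside in both libraries. The share of members with at least 3 mitosis genes was 68.5% outside and 39.4% inside in the proximal library, and 30.6% and 29.6% in the distal library.

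Between the E16.5 segments, 157 of 3414 genes at 50 CPM or more (4.6%) differed at least 2-fold in members, 109 of them higher (3.19%) and 48 lower (1.41%) in the distal members, with 1 library each and no test. Several of the largest ratios were shared by the other cells of the libraries. *Rpl29* was 38.5-fold higher in distal members and 39.2-fold in the other distal cells, *Gm10076* 8.91-fold and 9.18-fold, and *Spag7* 5.91-fold and 6.03-fold. *Gm3550* was 25.4-fold lower in distal members and 26.8-fold lower in the other cells, and *Gm26778* was 6.48-fold higher against 5.52-fold. For *Rpl29* the proximal library stood apart, at 465 CPM in E14.5 members, 8.89 CPM in proximal and 380 CPM in distal members. E14.5 and proximal were counted with the same Cell Ranger version, and the cause of the difference was not tested. *Spag7* was likewise lowest in the proximal members, at 31.5, 8.49 and 55.0 CPM. *Gm10076* and *Gm3550* stood apart in the distal library, which was counted with a later version, and for these the version and the segment cannot be told apart. *Gm26778* differed between all 3 libraries, at 2.42, 9.29 and 65.7 CPM in members. *Rpl29*, *Gm10076* and *Gm3550* have near-identical copies elsewhere in the genome, and the part of these copies in the differences was not tested.

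Other genes differed more in members than in the rest. *Cxcl1*, a chemokine, was at 14.1 CPM in proximal and 224 CPM in distal members, a ratio of CPM + 1 of 14.8 against 4.29 in the other cells. It was not particular to members: the distal cluster that held most members had 1176 CPM (226 cells, 27 of them members). *Kera*, a proteoglycan of tendon and cornea, was at 7.27 and 53.1 CPM, a ratio of 6.54 against 1.95. The cartilage genes *Matn1*, *Col2a1*, *Lect1*, *Col9a3* and *Col9a1* were lower in the distal members, by 120-, 33.3-, 25.3-, 15.2- and 12.6-fold, and by 14.8-, 3.67-, 2.96-, 4.09- and 3.13-fold in the other cells. *Matn1* had 581 UMIs in the proximal members, and whether few cells held most of them was not tested. Without cycling cells, the median log2 fold change of the chondrocyte list, members minus other cells, went from −2.24 to −5.22.

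From E14.5 to E16.5 proximal, 531 of 3569 genes (14.9%) differed at least 2-fold in members, 265 of them higher (7.43%) and 266 lower (7.45%) at E16.5. The E14.5 members held 412526 UMIs in all, so that 3 UMIs are 7.27 CPM, and the stage cannot be told apart from the segment of the limb taken. The 6 largest rises were *Matn1*, *Ccl11*, *Nov*, *Cav1*, *Serpinb1a* and *Ly6a*, each at 0 UMIs in the E14.5 members and between 56.6 CPM (*Ly6a*) and 235 CPM (*Matn1*) in the proximal members. The other cells rose in the same genes, by 2.19-fold (*Serpinb1a*) to 38.8-fold (*Ly6a*). Levels of *Rpl29*, *Calb2*, *Gsc*, *Kera*, *Nnat* and *Cxcl13* were lower in the proximal members. *Calb2*, the calcium-binding protein calretinin, went from 63.0 to 0.404 CPM, the limb transcription factor *Gsc* from 97.0 to 5.25 CPM and the chemokine *Cxcl13* from 55.8 to 3.23 CPM. In the other cells *Cxcl13* was level, at a ratio of CPM + 1 of 1.04, and *Gsc* was 4.16-fold, *Calb2* 4.53-fold and *Kera* 2.10-fold lower. *Rpl29* and *Nnat* were lower in the other cells by 46.1- and 10.8-fold, against 47.2- and 14.6-fold in members, and so shifted in the library at large.

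The difference between members and other cells was also compared between stages. In an interaction of both E16.5 libraries against E14.5, added after seeing the data, 104 of 15879 genes (0.655%) passed in edgeR. E14.5 is 1 library there, with no spread of its own, so the count does not show how many genes changed with stage. Among the genes described here *Col18a1* was one, with a log2 fold change of members against other cells that was higher at E16.5 by 3.43 (SE 0.48), and *Rspo3* another, whose fold change dropped by 1.08 on the log2 scale.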

How the data were processed

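UMI counts of 8 droplet libraries were deposited, and 3 were used for the members. The authors aligned reads to a modified mm10 reference and, per the file headers, deposited raw counts of 28001 features from Cell Ranger 3.0.2 (E14.5, E16.5 proximal) and 6.0.1 (E16.5 distal); the kit was version 3 in all 3 per the methods. The used libraries held 135534751, 236408650 and 160375326 UMIs. Groups came from the GEO labels. The rule, the members and all gene lists were chosen with earlier results of these data known. Genes named are those of the lists, the 12 with the largest log2 fold change in each direction among genes with an adjusted p under 0.05 that reached 20 CPM and changed alike in 3 libraries, and the 6 with the largest ratio of CPM + 1 in each direction between libraries at 50 CPM or more, leaving out rule, haemoglobin, mitochondrial and sex-linked genes. Some genes that this rule selects are not reported here.

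Counts were summed per library over members and over other cells (6 sums) and tested with edgeR 4.0.16 in R 4.3.3 (TMM, its filter on low counts, quasi-likelihood test, library as block, 2 residual degrees of freedom, Benjamini-Hochberg over all genes tested). The 8 rule genes stayed in the totals and got no test. Forelimbs were pooled and both E16.5 segments may come from the same limbs, so p-values do not measure the spread between embryos. They rest on the differences between these libraries and on a trend of spread over all genes that edgeR uses for each gene. In simulated data for this comparison, with 15551 genes run and 200 changed 4-fold, 200 were recovered with 8 false calls. The changed genes were drawn from those at a mean of 20 CPM or more, and the sums were drawn with the dispersions of the fit. Changes in genes at lower levels, and UMIs gathered in single cells, were thus not covered. The same sums were also fitted with DESeq2 1.42.0 and with limma-voom from limma 3.58.1. Cells were clustered per library with scanpy 1.11.5 and leidenalg 0.10.2 (2000 variable genes, 50 components, 25 neighbours, resolution 1). Scrublet marked 0 cells as doublets at E14.5 and E16.5 distal and 296 (2.66%) in the proximal library, 4 of them members. It had thus not worked in 2 libraries, and doublets were kept in the main analysis. At E14.5, proximal and distal, 13.6%, 6.90% and 11.8% of the members were among the top 6% of doublet scores of their library. Without the top 6% of scores 1051 genes passed, and the part of doublets as a cause was not tested. Gene positions are of the GRCm38 annotation.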

Additional observations from a re-analysis of the deposited data

Results flagged for a closer look

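The difference between members and other cells was itself compared between E16.5 (2 libraries) and E14.5 (1 library) with an interaction term in edgeR, chosen after seeing the data. With 1 residual degree of freedom, the lone E14.5 library was assumed to vary like the others. Of 15879 genes, 104 (0.655%) passed an adjusted p of 0.05, among them 20 of 241 list genes. Of these list genes, 3 are keratinocyte genes and 4 had 0 UMIs in the members of a library. A further 1 stayed under 20 CPM on average over the libraries in the higher of both groups. The other 12 follow, each as the log2 fold change at E16.5 minus that at E14.5.

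The log2 fold change of members against other cells was higher at E16.5 for *Col18a1* (3.43, adjusted p = 5.14e-09, edgeR), *Acta2* (3.39), *Stmn2* (3.08), *Col14a1* (1.71), *Sfrp1* (1.31) and *Col4a1* (0.89, adjusted p = 0.0488, edgeR). *Acta2*, the smooth muscle actin, was at 2.42 CPM in E14.5 members against 28.7 CPM in the other cells, and at 82.4 and 35.7 CPM in the proximal and distal members against 75.1 and 61.8 CPM. *Col14a1*, a fibril-associated collagen, was at 33.9 CPM against 80.6 CPM at E14.5, and at 638 and 600 CPM against 491 and 463 CPM at E16.5. For both, the members lay below the other cells at E14.5, and for *Acta2* they came nearer to them at E16.5.

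The log2 fold change was lower at E16.5 for *Tnmd* (−2.88, adjusted p = 5.00e-24, edgeR), *Kcnj8* (−2.77), *Nefl* (−2.61), *Kera* (−1.62), *Rspo3* (−1.08) and *Mfap5* (−1.003). *Tnmd*, the tendon gene tenomodulin, was at 172 CPM in E14.5 members against 216 CPM in the other cells, and at 16.6 and 36.2 CPM against 307 and 205 CPM in the proximal and distal libraries, so that members lay further below the other cells at E16.5. *Rspo3* was at 330 CPM against 118 CPM at E14.5, and at 80.4 and 80.6 CPM against 53.9 and 79.1 CPM at E16.5. The excess of *Rspo3* in members thus lay mostly at E14.5, where 22 members were summed.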

How the results depend on the processing

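The number of genes that passed (1122) ranged from 449 to 1579 when 1 library was left out: 449 without E16.5 proximal, 640 without E16.5 distal and 1579 without E14.5. It was 222 with every cell thinned to 3000 UMIs, 87 with members found after thinning, 46 with all 3 rule genes required, 716 without cycling cells, 546 among genes of at least 5 CPM, 376 with DESeq2 and 104 with limma-voom, and between 1001 and 1272 under the other settings. Without the library block 0 genes passed in edgeR, with 649 at an unadjusted p under 0.05. The share of calls that were higher was 35.1%, and 41.0% with DESeq2's size factors in edgeR, 51.6% with DESeq2 and 63.5% with limma-voom. That block pairs the members with the other cells of their library. By replicate number, no paired analysis was possible because each library is 1 sample and the numbers only name it.

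Shares of members moved to 0.0119%, 0.0540% and 0.0355% after thinning and 0%, 0.0180% and 0.0118% with all 3 genes at E14.5, proximal and distal, to 0.477% (proximal) and 0.687% (distal) without any keratin UMI, and to 0.167%, 0.648% and 0.651% with *Cldn1* and *Wnt6* only. Genes past 2-fold between E16.5 segments numbered 1773 after thinning and 2566 with all 3 genes, and 3243 between proximal and E14.5 after thinning. With all 3 genes the latter could not be computed, since no E14.5 cell had them. These settings leave 10 and 3 members.

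Directions turned almost only there. With members found after thinning, *Ptch1* was at −0.021, *Cgnl1* −0.73, *Slit3* −0.37, *Mki67* −1.16 and *Top2a* −1.80 (log2), *Col9a3* between segments at 0.88 and *Kera* between stages at 3.46. With all 3 genes, *Foxd1* was at −1.13, *Fam65b* −11.53, *Itga6* −2.09, *Lepr* −1.25, *Bace2* −12.39, *Lypd2* −10.55, *Tenm2* −11.77, *Ptch1* −0.27, *Gli2* −13.26, *Col4a2* −0.45, *Nid1* −0.65, *Lama4* −1.22, *Ntrk2* −0.0095, *Nrp1* −0.80, *Slit3* −0.77, *Kcnj8* −1.09, *Cdh5* −9.72 and *Mfap5* −0.46, and between segments *Cxcl1* at −7.36, *Col2a1* 0.21 and *Col9a1* 3.97. Without cycling cells *Mki67*, 1 of the genes they were defined by, was at −0.77, and with DESeq2 *Gli2* at −0.078. Fewer members show in both of the first settings, and the other causes were not tested.

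Of 59 named genes, limma-voom lost the call of 35, DESeq2 of 20, thinned cells of 16 and a comparison with only the cells within the keratin and *Epcam* limits of 12, many of them epidermal. Beside those, limma-voom lost *Bace2*, *Tenm2*, *Ptch1*, *Gli1*, *Gli2*, *Slc2a1*, *Cgnl1*, *Lama4*, *Lamc1*, *Col15a1*, *Ngfr*, *Slit3*, *Sfrp1*, *Rspo3*, *Wnt4*, *Aqp1*, *Slc16a3*, *Rgs5*, *Kcnj8*, *Cdh5*, *Col2a1*, *Tnmd* and *Top2a*, DESeq2 lost *Slc2a1*, *Col18a1*, *Ngfr*, *Rspo3*, *Wnt4*, *Rgs5*, *Kcnj8*, *Tnmd* and *Top2a*, and thinned cells lost *Tenm2*, *Gli1*, *Gli2*, *Slc2a1*, *Cgnl1*, *Lama4*, *Lamc1*, *Sema5b*, *Ngfr*, *Slit3*, *Wnt4*, *Slc16a3*, *Rgs5*, *Kcnj8* and *Top2a*. *Gli2*, *Lama4*, *Lamc1* and *Top2a* lost their calls without either E16.5 library, *Slc2a1*, *Slit3* and *Wnt4* without the proximal, *Ngfr*, *Sfrp1* and *Slc16a3* without the distal, and *Rspo3* and *Kcnj8* without the E14.5 library. The 22 members at E14.5 limit what can be said of that stage.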
